A study of Rattus norvegicus with 24 samples.

Results

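The 10 chemokines followed here were Ccl2, Ccl5, Ccl7, Ccl20, Cxcl1, Cxcl9, Cxcl10, Cxcl12, Cxcl16 and Cx3cl1, ligands that have been linked to leukocyte recruitment in injured kidneys. They were chosen by name, and their rows were found by gene symbol among 17334 rat genes measured by RNA sequencing in the left kidney of 24 male rats. All 10 were found, and all 10 were among the 12778 genes that passed the filter on low counts. Every animal, controls included, was labelled a PKD/Mhm (Cy/+) rat and was 8 months old. This rat is heterozygous for a missense mutation in Anks6 and develops kidney cysts, and the study told heterozygous from non-cystic animals by palpation of the abdomen, while the genotype of single animals was not tested here. There were 6 animals in each of 4 groups. The Ctrl group was untreated. The CoCM group received medium in which ABCB5+ stromal cells from human skin had been kept with THP-1-derived macrophages under IFN-γ and LPS, so that it may carry human proteins. Its route is given as intraperitoneal in the series description and as intravenous in the methods. Both remaining groups received the human cells themselves, one by the intraperitoneal route (i.p. ABCB5+) and the other by the intravenous route (i.v. ABCB5+). Doses were given monthly for 6 months. No kidney labelled as free of the Cy allele was analysed here, so that the levels below give no difference from a healthy kidney.

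Chemokines are small secreted or membrane-bound proteins that bind G protein-coupled receptors on leukocytes and direct their movement along a gradient. In the kidney they are made by tubule cells, endothelium, interstitial fibroblasts and the leukocytes themselves, and many of them are transcribed when NF-kappa B or interferon signalling is switched on. Ccl2 and Ccl7 attract monocytes, Ccl5 attracts T lymphocytes and monocytes, Ccl20 binds Ccr6 on lymphocytes and dendritic cells, and Cxcl1 binds Cxcr2 on neutrophils. Cxcl9 and Cxcl10 are the interferon-inducible ligands of Cxcr3. Cxcl12 is a constitutive stromal ligand of Cxcr4 and Ackr3, while Cxcl16 (for Cxcr6) and Cx3cl1 (for Cx3cr1) are made as transmembrane proteins that can be shed.

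The DNA just upstream of these genes is shown first, because the ligands are known to differ in what induces them. Promoter sequences from RefSeq (rat assembly GRCr8) were at hand for 8 of the 10 genes, all but Ccl2 and Ccl5. In the 250 bases before the annotated start, read on both strands, the NF-kappa B consensus of 10 letters was found in Ccl20, Cxcl1 and Cxcl10. It was held by 3.52% of 27457 promoter windows of that length. An interferon-stimulated response element core (TTTCNNTTTC) was found in Cxcl10 and in 3.29% of all windows. An AP-1 motif (TGANTCA) was found in Ccl7 and Cxcl10 and in 6.36% of all windows, and a GAS motif (TTCNNNGAA) in none of the 8 and in 7.52% of all windows. None of the 4 motifs was found in Cxcl9, Cxcl12, Cxcl16 or Cx3cl1. Such a match is a run of letters and not a shown binding site. The windows of the genes with the NF-kappa B match are printed here beside that of Cxcl12, one of the 2 most abundant of the 10 and one with no match, each 5′ to 3′ on the strand of its gene, with the matched letters in capitals. Ccl20 lies at chr9:91836909-91837158 on the plus strand, Cxcl1 at chr14:17479322-17479571 on the minus strand, Cxcl10 at chr14:15988816-15989065 on the plus strand and Cxcl12 at chr4:152060531-152060780 on the plus strand, all in GRCr8.
Ccl20: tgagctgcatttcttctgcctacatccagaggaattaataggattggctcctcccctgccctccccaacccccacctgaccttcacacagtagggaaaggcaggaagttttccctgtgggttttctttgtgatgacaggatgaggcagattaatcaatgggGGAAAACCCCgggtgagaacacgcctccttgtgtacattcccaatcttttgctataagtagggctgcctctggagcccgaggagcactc
Cxcl1: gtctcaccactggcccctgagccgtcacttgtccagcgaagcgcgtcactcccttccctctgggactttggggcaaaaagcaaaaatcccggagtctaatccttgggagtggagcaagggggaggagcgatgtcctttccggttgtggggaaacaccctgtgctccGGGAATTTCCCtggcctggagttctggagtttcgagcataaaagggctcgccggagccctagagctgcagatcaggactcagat
Cxcl10: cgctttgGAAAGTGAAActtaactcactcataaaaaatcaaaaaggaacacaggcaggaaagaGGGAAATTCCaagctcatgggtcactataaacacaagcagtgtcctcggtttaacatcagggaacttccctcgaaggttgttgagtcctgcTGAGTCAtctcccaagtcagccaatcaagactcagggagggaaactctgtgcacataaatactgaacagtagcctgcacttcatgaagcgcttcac
Cxcl12: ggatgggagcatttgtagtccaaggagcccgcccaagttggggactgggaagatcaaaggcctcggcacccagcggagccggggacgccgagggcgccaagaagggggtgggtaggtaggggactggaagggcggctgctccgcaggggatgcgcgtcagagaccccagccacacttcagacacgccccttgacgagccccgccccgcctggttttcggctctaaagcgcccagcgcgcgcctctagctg
In Ccl20 the capitals start 89 bases before the gene, and in Cxcl1 they start 84 bases before it, where the motif reads on both strands and its overlapping matches merge into 1 run. In Cxcl10 the capitals mark, from the left, the interferon element 243 bases before the gene, the NF-kappa B match at 187 bases and the AP-1 match at 96 bases.

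Before the results, the state of the libraries has to be given. Total estimated counts per animal ran from 9304630 to 14125457. On a principal component analysis of all tested genes, the first component held 56.3% of the variance, and 4 treated animals stood apart from the other 20 on it: CoCM animal 39, i.p. ABCB5+ animal 38 and i.v. ABCB5+ animals 36 and 37. No Ctrl animal was among them. They are named wherever they bear on a result, and each comparison was also run without them. Ctrl animals carry the numbers 1 to 24 and treated animals 26 to 43, so that numbering order and treatment cannot be told apart. The values are for whole tissue, in which fewer cells of a type and less RNA per cell cannot be told apart.

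In untreated cystic kidneys the chemokine transcripts spanned a wide range of levels. On the TPM scale, which corrects for transcript length, Cxcl12 (366 ± 78.7 TPM, SD, n = 6) and Cxcl16 (355 ± 43.9 TPM) were the most abundant. They were followed by Cx3cl1 (150 ± 23.4 TPM), Ccl2 (92.1 ± 42.8 TPM) and Ccl5 (46.2 ± 18.6 TPM). Ccl20 (38.7 ± 18.4 TPM), Cxcl10 (37.3 ± 9.80 TPM) and Cxcl9 (20.9 ± 11.3 TPM) came next, and Ccl7 (12.5 ± 7.17 TPM) and Cxcl1 (8.18 ± 4.04 TPM) were lowest. The order is firm in 1 place only among neighbours: the Ctrl ranges of Cxcl16 and Cx3cl1 did not overlap, and Cxcl16 was the higher of both in 24 of 24 animals. Each other pair of neighbours overlapped in its Ctrl range. Cxcl12 exceeded Cxcl16 in 12 of 24 animals, and Ccl20 exceeded Cxcl10 in 9 of 24, so that these pairs have no order. The 3 leading transcripts, which are the stromal ligand and both transmembrane ligands, varied least among untreated animals, with coefficients of variation of 21.5% (Cxcl12), 12.4% (Cxcl16) and 15.6% (Cx3cl1). Ccl7 (57.6%), Cxcl9 (54.1%) and Cxcl1 (49.3%) varied most.

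**Figure D1:**
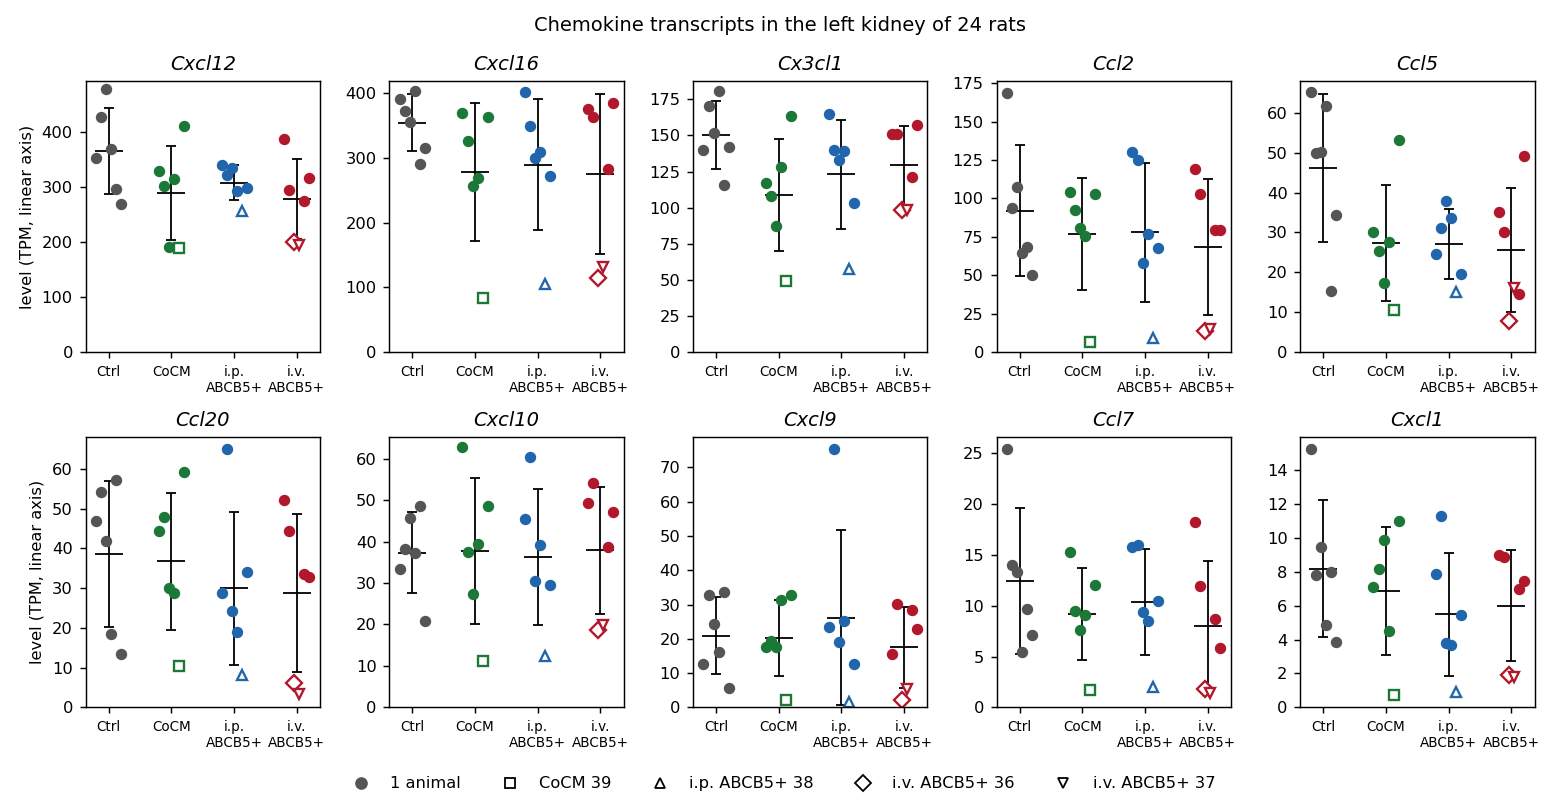
Levels of the 10 chemokines in 24 kidneys, in TPM on linear axes that start at 0, with 1 point per animal in 4 groups of 6 and with bars for the mean ± SD of each group. Open symbols mark the 4 animals that stood apart over all genes, and in Ccl2 they lie between 6.34 and 14.8 TPM while the other 20 animals lie between 50.2 and 168 TPM.

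The 10 were part of a larger chemokine output. Over 34 ligands with a row in the files, the members made up 25.9% to 39.1% of the summed ligand TPM in 20 animals. The most abundant ligand outside the 10 was Ccl21, which guides Ccr7-bearing lymphocytes and dendritic cells, at 1281 ± 667 TPM over 24 animals. Rodents carry several near-identical Ccl21 copies, so that this value is uncertain. In the 4 animals that stood apart the share of the members was higher, between 60.2% (i.v. 37) and 63.8% (i.v. 36). In those animals the members' own sum was 366 to 487 TPM against 726 to 1278 TPM elsewhere, while Ccl21 was at 58.3 to 86.7 TPM against 786 to 2215 TPM.

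The first question of the design was whether treatment with conditioned medium or with cells changed the chemokines against untreated kidneys. None of the 10 passed the threshold in any comparison. With CoCM against Ctrl, 0 of 10 had an adjusted p under 0.05 in the quasi-likelihood test of edgeR, in which 1 of 12778 genes passed (0.00783%). That gene was Ovca2, which overlaps its neighbour Dph1 and was picked out after its value was seen. With i.p. ABCB5+, with i.v. ABCB5+, between both routes and over the 4 groups together, 0 members and 0% of all genes passed. At an unadjusted p under 0.05 the background was 11.9% of genes for CoCM, 1.77% for i.p. ABCB5+, 5.78% for i.v. ABCB5+, 2.14% between the routes and 4.71% over the 4 groups. The members counted 0, 0, 1, 0 and 0 there, the single one being Ccl5 with i.v. ABCB5+. DESeq2 and limma also called 0 members in every comparison.

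The signs leaned downward without passing a test. With CoCM 7 of 10 fold changes were negative, with a median log2 fold change of -0.22, and with each cell route 9 of 10 were negative, with medians of -0.28 (i.p.) and -0.38 (i.v.). The medians over all tested genes were 0.009, 0.004 and 0.013. The 3 comparisons share the Ctrl animals, so that their signs are not independent of each other. Without the 4 animals that stood apart, 5 (CoCM), 8 (i.p.) and 7 (i.v.) of 10 were negative, with medians of -0.03, -0.13 and -0.06. In those runs Ccl5 was at -0.53, -0.67 and -0.56, Ccl2 at 0.04, -0.05 and -0.01 and Cxcl16 at -0.09, -0.12 and -0.05 in log2 fold change (CoCM first, then the i.p. and the i.v. route), against -0.19, -0.29 and -0.46 for Ccl2 and -0.27, -0.28 and -0.34 for Cxcl16 with them. Ccl2 also moved with single animals, from -0.33 to 0.12 (CoCM), -0.44 to 0.03 (i.p.) and -0.73 to -0.14 (i.v.). Its highest value was each time the one without Ctrl animal 1.

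**Figure D2:**
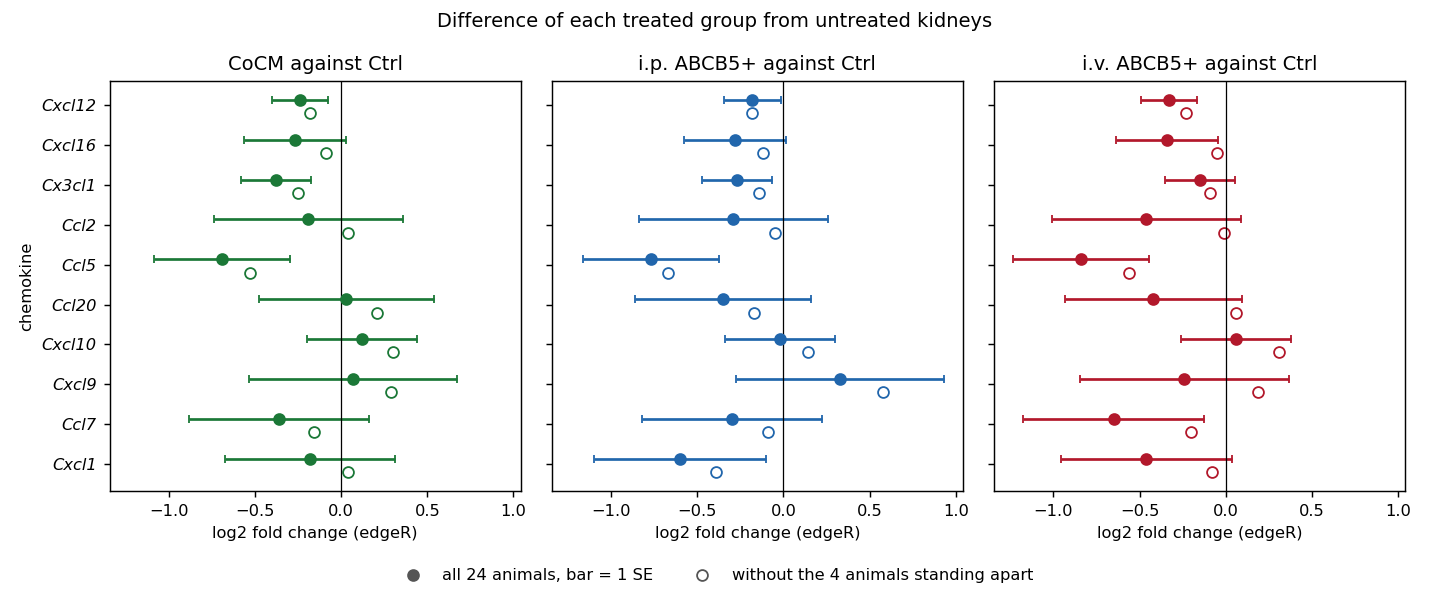
Log2 fold change of each chemokine against Ctrl in the 3 treated groups, with filled points and bars for the edgeR estimate ± SE over 24 animals and open points for the estimate without the 4 animals that stood apart. Ccl5 lies lowest with i.v. ABCB5+, at -0.84, and most open points lie nearer to 0 or above it.

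Ccl5, the T lymphocyte and monocyte attractant, had the lowest unadjusted p. Its level in Ctrl kidneys ran from 15.3 TPM in animal 23 through 34.3, 50.1, 50.3 and 61.9 TPM to 65.2 TPM in animal 1. In CoCM kidneys it was 10.5, 17.2, 25.4, 27.7, 30.2 and 53.3 TPM. In i.p. ABCB5+ kidneys it was 15.0, 19.7, 24.5, 31.1, 33.7 and 37.98 TPM, and in i.v. ABCB5+ kidneys 7.79, 14.5, 16.1, 30.2, 35.3 and 49.3 TPM. All groups overlapped, although 6 of 6 i.p. animals, 5 of 6 CoCM animals and 5 of 6 i.v. animals lay under the Ctrl mean. The log2 fold change was -0.84 ± 0.396 (SE) for i.v. ABCB5+, with an edgeR unadjusted p of 0.0449 and an adjusted p of 0.673. It was -0.77 ± 0.396 for i.p. ABCB5+ (adjusted p = 0.978) and -0.69 ± 0.395 for CoCM (adjusted p = 0.466). Exact two-sided permutation tests on log2 CPM over 6 against 6 animals gave p = 0.115 (i.v.), 0.134 (i.p.) and 0.182 (CoCM), where the smallest p the design allows is 0.00216. When single animals were left out, the i.v. estimate ran from -1.11 (without i.v. 43) to -0.67 (without i.v. 36), the i.p. estimate from -0.96 (without Ctrl 23) to -0.60 (without Ctrl 1) and the CoCM estimate from -0.97 (without CoCM 40) to -0.52 (without Ctrl 1). The adjusted p did not go under 0.273 in any such run. Without the 4 animals that stood apart the i.v. estimate was -0.56, with an edgeR unadjusted p of 0.161.

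Ccr1, a receptor of Ccl5 on monocytes and other leukocytes, was at 7.68 ± 2.18 TPM in Ctrl, 4.44 ± 2.48 with CoCM, 4.55 ± 2.83 with i.p. and 4.20 ± 3.21 with i.v. ABCB5+ (SD, n = 6 each). It did not pass against Ctrl, with edgeR adjusted p from 0.571 to 0.978. Of the markers of T and NK lymphocytes, 0 of 11 passed in any comparison, and the one with the smallest p was Gzmb, the granule protease granzyme B, at -0.92 ± 0.438 in log2 fold change with CoCM (adjusted p = 0.416).

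The stromal and transmembrane ligands were the most precisely measured, and their differences were small. Cxcl12, which holds Cxcr4-bearing cells in place, had a lowest, median and highest level of 269, 362 and 479 TPM in Ctrl and 189, 309 and 412 TPM with CoCM. With i.p. ABCB5+ these were 256, 311 and 341 TPM, and with i.v. ABCB5+ 195, 284 and 388 TPM. The i.p. animals formed the tightest group, with all 6 under the Ctrl mean. Log2 fold changes were -0.24 ± 0.163 (CoCM), -0.18 ± 0.163 (i.p.) and -0.33 ± 0.163 (i.v.) by edgeR, with adjusted p of 0.520, 0.978 and 0.673. Without the 4 animals that stood apart they were -0.18, -0.18 and -0.23. When single animals were left out, they ran from -0.36 to -0.13 (CoCM), -0.26 to -0.07 (i.p.) and -0.45 to -0.22 (i.v.). The value nearest to 0 was each time the one without Ctrl animal 18.

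Cx3cl1, whose membrane form holds Cx3cr1-bearing monocytes and lymphocytes, had the smallest exact p of the family. Its lowest, median and highest levels were 116, 147 and 181 TPM in Ctrl and 48.9, 113 and 164 TPM with CoCM. They were 57.7, 136 and 165 TPM with i.p. ABCB5+ and 98.2, 136 and 157 TPM with i.v. ABCB5+. With CoCM, 5 of 6 animals were under the Ctrl mean and 3 of 6 under the lowest Ctrl animal in TPM. The log2 fold change for CoCM was -0.38 ± 0.203, with an edgeR adjusted p of 0.448. When single animals were left out, it ran from -0.53 (without CoCM 40) to -0.24 (without CoCM 39). Without the 4 animals that stood apart it was -0.25. The exact permutation p, over all animals of both groups, was 0.0996. Over all 40 such permutation tests (10 genes, 4 comparisons) none went under 0.05, and in none did the groups stop overlapping.

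Cxcl16, the transmembrane ligand of Cxcr6, was the steadiest of the 10 in Ctrl, and in its treated groups the 4 animals that stood apart lay far below the rest. Ctrl animals lay between 290 and 403 TPM. With CoCM 5 animals lay between 257 and 370 TPM and animal 39 at 84.0 TPM. With i.p. ABCB5+ 5 lay between 273 and 402 TPM and animal 38 at 105 TPM, and with i.v. ABCB5+ 4 lay between 283 and 385 TPM and animals 36 and 37 at 114 and 131 TPM. The 24 animals thus lay either at 257 TPM or above, or at 131 TPM or below. The edgeR adjusted p was 0.671 for CoCM, 0.978 for the i.p. route and 0.698 for the i.v. route. Adam10, the protease known to shed Cxcl16 and Cx3cl1, was the gene with the smallest p among 10 transcripts of chemokine processing, none of which passed, at -0.36 ± 0.139 in log2 fold change with CoCM (adjusted p = 0.363).

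The monocyte attractants Ccl2 and Ccl7 followed one another from animal to animal. Ccl2 had a lowest, median and highest level of 50.2, 81.0 and 168 TPM in Ctrl, 6.34, 86.7 and 104 TPM with CoCM, 8.94, 72.4 and 130 TPM with i.p. and 13.9, 79.4 and 119 TPM with i.v. ABCB5+. Ctrl animal 1 was the highest of all 24 for both genes, at 168 TPM for Ccl2 and 25.4 TPM for Ccl7. The medians of Ccl2 therefore lay close together while the low ends did not. Ccl7 had medians of 11.4, 9.27, 9.94 and 7.23 TPM in Ctrl, CoCM, i.p. and i.v., within group ranges of 5.41 to 25.4, 1.73 to 15.2, 1.97 to 15.96 and 1.41 to 18.3 TPM. The largest Ccl7 difference was -0.65 ± 0.525 in log2 fold change with i.v. ABCB5+ (edgeR adjusted p = 0.691), and without Ctrl animal 1 it was -0.25.

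The ligands with an NF-kappa B match did not share a direction across the treatments, and none passed. Ccl2 and Ccl5 had no promoter sequence at hand and could not be placed in this class. Ccl20 was at 38.7 ± 18.4 TPM in Ctrl and 36.8 ± 17.3 with CoCM, 29.9 ± 19.4 with i.p. and 28.7 ± 19.9 with i.v. ABCB5+ (SD, n = 6 each). Cxcl1, the neutrophil attractant and the lowest of the 10, was at 8.18 ± 4.04, 6.88 ± 3.77, 5.49 ± 3.63 and 6.00 ± 3.29 TPM. Its lowest animals rested on 4 and 5 estimated counts, so that its low end is coarse. Cxcl10 was the flattest gene across groups, at 37.3 ± 9.80, 37.8 ± 17.6, 36.3 ± 16.3 and 37.9 ± 15.3 TPM. Its log2 fold changes were 0.12, -0.02 and 0.06, with SEs of 0.319 to 0.320. Without the 4 animals that stood apart they were 0.30, 0.14 and 0.31, so that the flatness rests on those animals. None of these passed.

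Cxcl9, the other Cxcr3 ligand, had the largest coefficient of variation over all 24 animals, 72.6% against 57.8% for Ccl7, but without i.p. animal 30 it was 55.4% against 59.2%. Ctrl animals had 5.70, 12.8, 16.1, 24.3, 32.8 and 33.8 TPM, and CoCM animals 2.26, 17.6, 17.6, 19.5, 31.5 and 32.8 TPM. The i.p. ABCB5+ animals had 1.53, 12.8, 19.0, 23.4, 25.2 and 75.3 TPM, and the i.v. ABCB5+ animals 2.18, 5.51, 15.7, 22.99, 28.4 and 30.3 TPM. Animal 30 of the i.p. group stood far above the other 23, and it also had the second-highest Cxcl10 level, 60.5 TPM. The i.p. estimate of 0.33 ± 0.603 became -0.29 when that animal was left out. Between the routes, Cxcl9 had the largest difference of the family, 0.57 ± 0.607 in log2 fold change (edgeR adjusted p = 1), and -0.04 without that animal. The other 9 differed by -0.15 to 0.36 between the routes.

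The 4 animals that stood apart over all genes had low chemokine levels, and the chemokines differed in how low. Taking CoCM 39, i.p. 38, i.v. 36 and i.v. 37 in turn, Ccl2 was at 6.34, 8.94, 13.9 and 14.8 TPM, or 6.88% to 16.1% of the Ctrl mean. Cxcl16 was at 23.7% to 36.9% of the Ctrl mean, Cx3cl1 at 32.6% to 65.4% and Cxcl12 at 51.8% to 69.9%. In TPM, 7 of 10 members were lower in each of these 4 animals than in all other 20, against 22.8% of all genes tested. On the CPM scale after library scaling the count was 5 of 10, namely Ccl2, Ccl7, Ccl20, Cxcl1 and Cxcl16, against 14.2%. Ccl5, Cxcl12 and Cx3cl1 were the exceptions on both scales, and Cxcl9 and Cxcl10 on the CPM scale. Set against the 6 Ctrl animals alone, 9 of 10 were lower in all 4, against 32.1% of genes, Ccl5 being low in 3 of the 4. The animals were picked out over genes that include these 10, so that the counts describe them and carry no test.

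**Figure D3:**
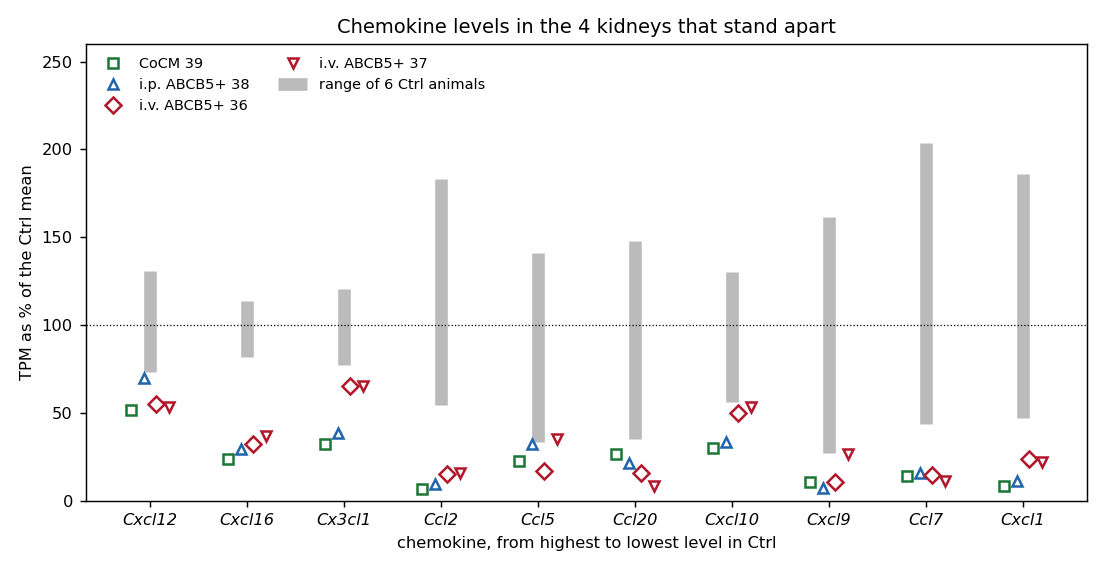
TPM of each chemokine in the 4 animals that stood apart, as a percentage of the mean of 6 Ctrl animals, on a linear axis from 0, with grey bars for the range of the Ctrl animals. The symbols for Ccl2 lie between 6.88% and 16.1% and those for Cxcl12 between 51.8% and 69.9%.

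Several lists of cell markers were also low in these animals, and their part in the chemokine values was not tested. The markers were among the genes over which the animals were picked out, so that the counts carry no test. Of all genes tested, 22.8% were lower in TPM in each of the 4 animals than in the other 20. Of 10 macrophage markers, 10 were lower in each of the 4 animals than in the other 20 in TPM, and their summed level was 87.3, 152, 171 and 201 TPM in CoCM 39, i.p. 38, i.v. 36 and i.v. 37 against 423 to 1115 TPM elsewhere. By group the macrophage sum ran from 524 to 1115 TPM in Ctrl, 87.3 to 1104 with CoCM, 152 to 876 with i.p. and 171 to 910 with i.v. ABCB5+. Of 11 markers of T and NK lymphocytes 9 were lower in all 4, with sums of 24.3 to 46.8 TPM against 137 to 318 TPM. Of 9 markers of injured tubules 7 were lower, and their sums were 552 to 932 TPM against 7575 to 15682 TPM. Havcr1, the injury marker KIM-1, was at 1.80 to 8.51 TPM there against 31.1 to 142 TPM, Lcn2 at 13.6 to 18.2 against 164 to 520 TPM, and Spp1 at 326 to 566 against 6141 to 13259 TPM. Injured-tubule transcripts and most chemokines were thus low in the same kidneys, and whether these 4 animals carry the Cy allele was not tested here. Of 7 fibroblast and pericyte markers 6 were lower, and of 5 B lymphocyte markers 4. Of 6 neutrophil markers 2 were lower, which is near the share over all genes. Of 6 endothelial, 5 podocyte and 8 distal and collecting duct markers none was lower in all 4. Of 4 adrenal and perirenal fat markers tested none was lower either. The sum over that list was 46.2 to 248 TPM in Ctrl and reached 910 TPM in a CoCM animal outside the 4. Proximal tubule markers went the other way, with 2 of 8 higher in all 4 and sums of 3733 to 5964 TPM against 1021 to 3863 TPM. No marker list had a gene at 0 in every animal.

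Most genes listed for the pathways known to induce these chemokines were also low in the 4 animals. They were among the genes over which the animals were picked out, so that the counts describe them and carry no test. A link to the chemokines was not tested. Of 13 tested NF-kappa B and TNF genes 11 were lower in TPM in all 4 than in the other 20, against 22.8% of all genes tested. The exceptions were the receptor Il1r1 and the inhibitor Nfkbia. Of 13 interferon gamma response genes 11 were lower as well, the exceptions being Jak1 and Cd274. Against Ctrl, 0 of 13 of either list passed in any treated group. All 13 interferon genes had negative estimates with i.p. and with i.v. ABCB5+, and 12 of 13 with CoCM, with median log2 fold changes of -0.21, -0.43 and -0.32. The NF-kappa B list had medians of -0.18 (CoCM), -0.19 (i.p.) and -0.24 (i.v.). The genes with the smallest p were Il1r1, the interleukin 1 receptor, at -0.97 ± 0.271 with CoCM (edgeR adjusted p = 0.226), and Jak1, a kinase of interferon receptors, at -0.33 ± 0.113 with CoCM (adjusted p = 0.323).

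The receptors of these ligands were mostly at low levels. Of 12 receptors looked for, 10 had a row, Ccr2 and Ackr1 were not analysed here, and Ccr3 was too low to test. Ackr3, a scavenging receptor of Cxcl12, led at 56.6 ± 12.3 TPM over 24 animals, followed by Cxcr4 at 16.8 ± 7.71 TPM. Cxcr2, on neutrophils, was at 1.501 ± 0.960 TPM. Of 9 tested, 0 passed in any comparison, and 8 of 9 had negative estimates with CoCM, 8 of 9 with i.p. and 9 of 9 with i.v. ABCB5+. These signs are over all 24 animals, the 4 that stood apart included. Cx3cr1 had the smallest p, at -0.92 ± 0.471 in log2 fold change with CoCM (edgeR adjusted p = 0.434), with 13.3 ± 3.44 TPM in Ctrl and 6.68 ± 4.51 TPM with CoCM. In the 4 animals that stood apart, 7 of 9 receptors were lower in TPM than in the other 20, against 22.8% of all genes tested. Ackr3 was not among them, at 84.6, 71.7, 46.8 and 32.1 TPM in the order given above, against 38.1 to 73.7 TPM elsewhere.

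Ligands and receptors were then compared animal by animal over the 20 kidneys that did not stand apart, since 2 separate clusters allow no pooled correlation. Of 20 relations computed on log2 CPM, 8 passed a permutation test of Pearson's r at an adjusted p under 0.05 and 7 passed for both r and Spearman's rho. Ccl2 and Ccl7 had r = 0.85 and rho = 0.85 (permutation p = 1e-05, the smallest that can be given, adjusted p = 0.0002 for both). Cx3cl1 with Cx3cr1 had r = 0.73 and rho = 0.65 (permutation p = 0.00023 and 0.00259, adjusted 0.0023 and 0.00863). In both pairs, animals high in one transcript were mostly high in the other. Ccl20 with Ccr6 had r = 0.67 and rho = 0.71 (permutation p = 0.00114 and 0.00085, adjusted 0.00456 and 0.00567), Cxcl10 with Cxcr3 r = 0.66 and rho = 0.65 (0.00099 and 0.00233, adjusted 0.00456 and 0.00863) and Cxcl16 with Cxcr6 r = 0.66 and rho = 0.65 (0.00222 and 0.00241, adjusted 0.0074 and 0.00863). Cxcl12 followed Cxcr4 more loosely, at r = 0.52 and rho = 0.54 (permutation p = 0.0175 and 0.0162, adjusted 0.0439 and 0.0463). It did not follow its other receptor Ackr3, at r = -0.11 and rho = -0.17 (permutation p = 0.635 and 0.472, adjusted 0.705 and 0.541). Cxcl1 with Cxcr2, the latter at 2.03 ± 0.67 TPM in Ctrl, had r = 0.28 and rho = 0.35 (permutation p = 0.239 and 0.125, adjusted 0.398 and 0.209). Such values were not particular to partners. Each ligand's nearest other member gave r = 0.85 (Cx3cl1 with Ccl5), 0.81 (Cxcl16 with Ccl5), 0.79 (Ccl20 with Cxcl1) and 0.75 (Cxcl12 with Ccl5). Cxcl10 with Ccl20 was at 0.64, against 0.66 with Cxcr3. The share of other gene pairs that would pass was not computed.

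Within groups the pairs held their values. With group means removed, r was 0.88 for Ccl2 and Ccl7, 0.69 for Ccl20 and Ccr6, 0.72 for Cxcl10 and Cxcr3, 0.65 for Cxcl12 and Cxcr4, 0.65 for Cxcl16 and Cxcr6 and 0.68 for Cx3cl1 and Cx3cr1, with permutation p from 1e-05 to 0.00185. Without the 2 animals farthest from the median of the ligand, r was 0.78 for Ccl2 and Ccl7, and 0.62, 0.65, 0.45, 0.50 and 0.71 for the ligand and receptor pairs in the same order. Cxcl9 and Cxcl10, which share Cxcr3, had r = 0.63 (permutation p = 0.00491, adjusted 0.014) and rho = 0.49 (0.031, adjusted 0.0688). Without Ctrl animal 24 and i.p. animal 30 their r was 0.24, so that this relation rests on those animals. All values of an animal come from 1 library, and the cell types that carry a receptor can also make a ligand. None of the 10 chemokines passed against Havcr1, with r from -0.18 (Ccl5) to 0.41 (Ccl2), permutation p adjusted over the 20 relations from 0.162 to 0.845, rho from -0.24 (Ccl5) to 0.49 (Ccl2) and adjusted p from 0.0688 to 0.758.

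**Figure D4:**
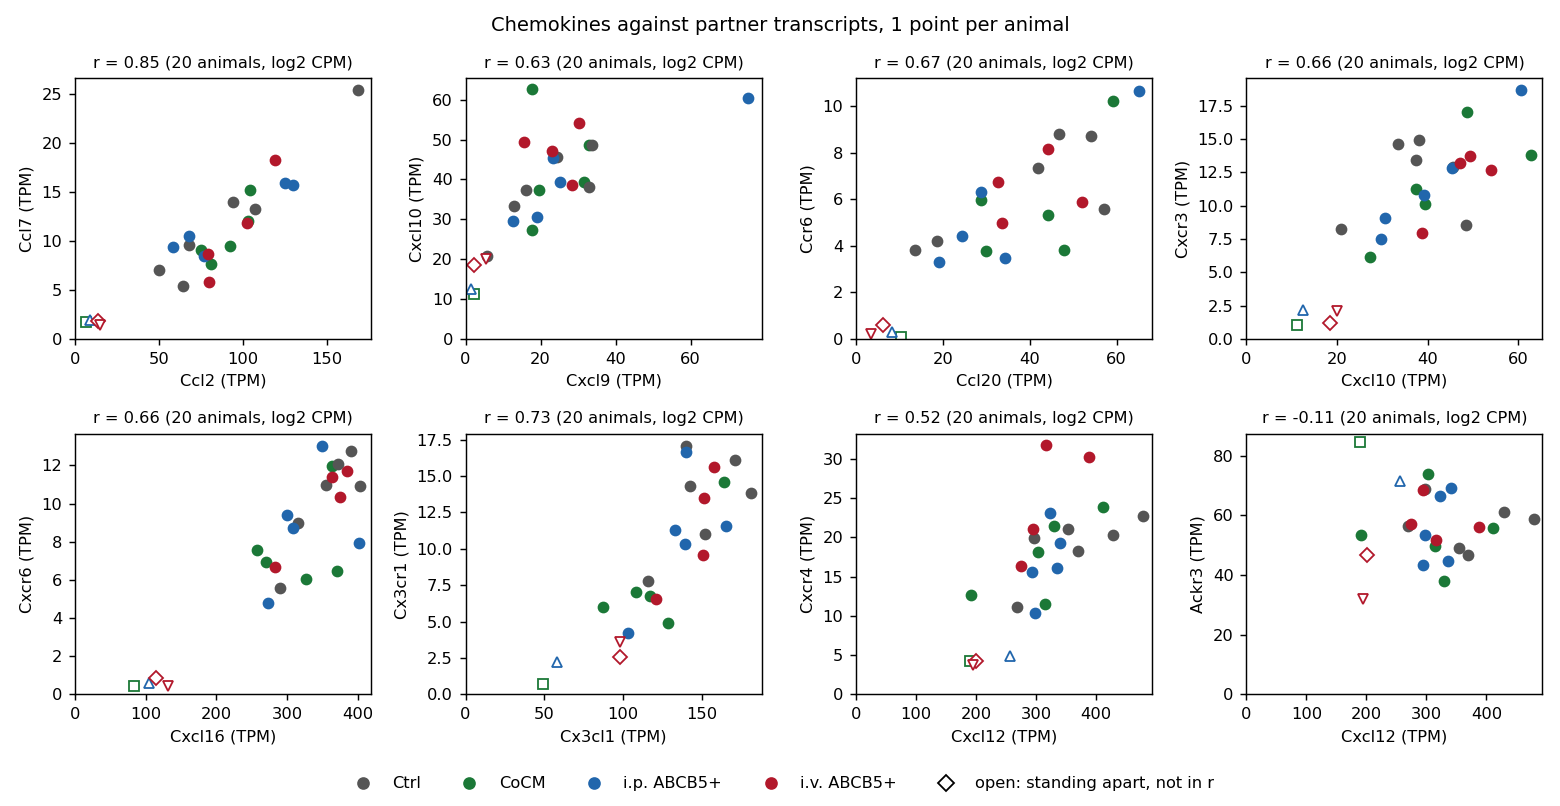
Chemokine (horizontal axis) against partner transcript (vertical axis), both in TPM on linear axes from 0, with 1 point per animal in 4 groups and with Pearson's r over the 20 animals shown filled, computed on log2 CPM. The 4 open symbols were left out of r, which was 0.85 for Ccl2 and Ccl7 and -0.11 for Cxcl12 and Ackr3.

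Over the same 20 animals, the tested genes outside the family whose log2 CPM was most like each member's were listed as a description. For Ccl2 these were Lcn2 (r = 0.90), Batf (0.88) and Ccnb2 (0.87), and for Cxcl1 they were S100a9 (0.84), Mmp7 (0.83) and Il1r2 (0.82). Ccl5 came closest to Nkg7 (0.92), Nmur1 (0.92) and Alox5ap (0.92), and Cxcl16 to Fcgr1a (0.94), C1qc (0.94) and Oaf (0.93). For Cxcl12 the nearest were Mfap2 (0.91), Ogn (0.90) and Asic2 (0.89), and for Cx3cl1 they were Clec11a (0.92), Pdgfra (0.91) and Heph (0.90). Nkg7 is a transcript of cytotoxic lymphocytes, C1qc and Fcgr1a are macrophage transcripts, and Mfap2, Ogn and Pdgfra are transcripts of matrix-producing cells. The other genes named for these members were not placed in a cell type, so that no difference in kind is drawn. Within the family, Ccl5 was the nearest member of Cx3cl1 (0.85), Cxcl16 (0.81) and Cxcl12 (0.75). Cxcl10 came closest to Fcnb (0.88), Birc3 (0.85) and Tap1 (0.84), and Cxcl9 to Astl (0.78), RT1-CE6 (0.74) and RT1-A3 (0.74), of which Tap1 and the RT1 genes serve antigen presentation. The RT1 genes are near-identical copies, so that their values are uncertain. Ccl20 came closest to Fam89a (0.88), Ret (0.87) and Sp140 (0.87), and Ccl7 to Rfc3 (0.89), Ccdc102a (0.86) and Cyp26a1 (0.86).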

How the data were processed

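RNA was read from the left kidney of 24 rats on a BGISEQ-500 instrument. For each animal the authors deposited estimated counts per Entrez gene, not normalized, and TPM values, scaled to transcript length and library total. The submitters' processing notes name Trim Galore 0.6.4, kallisto and rn6, and the study's methods a human gene-model package. Symbols came from the RefSeq table of GRCr8 for 17179 of 17334 identifiers. The 10 members, the lists and the named genes (all members and receptors, the highest and the smallest-p gene of each other list, 3 injury markers, and the 3 genes most like each member) were chosen with earlier results of these data known.

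Estimated counts were rounded, filtered with filterByExpr (12778 genes left), scaled by TMM and fitted over all 24 animals with the quasi-likelihood test of edgeR 4.0.16 (R 4.3.3). P-values were adjusted by Benjamini-Hochberg over all tested genes, at a threshold of 0.05. The study used DESeq2, which was run as an alternative. The SE was the log2 fold change divided by the square root of F. Single members were also compared with exact permutation tests, two-sided, and relations with 1e+05 permutations in scipy 1.17.1. Log2 CPM used a prior count of 2. Fitting was tested on simulated data. No pair of replicates agreed within counting error (smallest chi-square per degree of freedom 10.3 over 60 pairs). Each sample has a number of its own in the labels, taken as 1 animal. One receptor stands in the counts, but its own values are not reported here. Alternatives were median-ratio scaling, DESeq2 1.42.0, no count filter, limma 3.58.1 on log2(TPM + 1), only the groups compared, leaving out each animal, and leaving out the 4 animals that stood apart, the last chosen after seeing the data.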

Additional observations from a re-analysis of the deposited data

Results flagged for a closer look

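Each member was looked at in each group of 6 for an animal far from the rest, over 40 groups, of which chance picks about 1 in 20, or 2.0. A pair of values was picked out. Ccl2 in CoCM animal 39 was 6.34 TPM, where the other CoCM animals had 75.3 to 104 TPM, and this animal is one of the 4 that stood apart over all genes. Cxcl9 in i.p. ABCB5+ animal 30 was 75.3 TPM, where the other i.p. animals had 1.53 to 25.2 TPM.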

How the results depend on the processing

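No member passed the threshold in any comparison under any alternative, including leaving out each animal in turn. The number of genes called over the whole table did move. With CoCM it was 1 by edgeR, 78 by DESeq2, 0 by limma on log2(TPM + 1), 0 with only the groups compared, 0 without the 4 animals that stood apart, and 0 to 30 when single animals were left out, 30 being without Ctrl animal 23. DESeq2 called 1 gene with i.v. ABCB5+ and 1 between the routes, where edgeR called 0, and 10 over the 4 groups, where leaving out single animals gave 0 to 1. The cause was not tested. Of 40 member fold changes, 5 turned sign on log2(TPM + 1): Ccl20, Cxcl9 and Cxcl10 with CoCM to -0.07, -0.15 and -0.10, Cxcl9 with i.p. to -0.08 and Cxcl10 with i.v. to -0.04. Without the 4 animals 9 turned: Ccl2 and Cxcl1 with CoCM to 0.04 and 0.04, Cxcl10 with i.p. to 0.14, Ccl20 and Cxcl9 with i.v. to 0.06 and 0.19, and between the routes Ccl2, Ccl5, Ccl20 and Cxcl16 to -0.04, -0.11, -0.23 and -0.07. None of these passed the threshold on either side. Median-ratio scaling, DESeq2, no count filter and only the groups compared turned none of the 40. Of 20 relations, Cxcl12 with Ackr3 (0.01) and Cxcl9 with Havcr1 (0.04) turned sign on log2(TPM + 1), and neither had passed. No paired analysis was possible because no animal number occurs in 2 groups. With 6 animals a group and a common biological coefficient of variation of 0.299, differences of the size seen here were within the spread between animals, and members with few counts (Cxcl1, Cxcl9 and Ccl7 in the 4 animals) are coarse.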

Other observations

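Chemokine ligands outside the 10 were also described. Of 24 with a row, 21 were tested and 0 passed in any comparison. The smallest p was that of Ccl9, a rodent CC chemokine, with a log2 fold change of 0.63 ± 0.156 for CoCM (edgeR unadjusted p = 0.000549, adjusted p = 0.202). In the 4 animals that stood apart, 10 of 21 were lower in TPM than in the other 20, against 22.8% of all genes tested. Ccl19, the second ligand of Ccr7, was at 6.91 to 14.5 TPM there against 125 to 641 TPM, while Ccl24 was at 14.6 to 20.2 TPM against 11.6 to 19.7 TPM. Ccl19 and Ccl24 were chosen after their values were seen. Among 8 other chemokine receptors tested, 0 passed, Ccr7 was the highest at 6.89 ± 3.98 TPM (SD over 24 animals), and Ccrl2 had the smallest p (-0.54 ± 0.271 with i.p. ABCB5+, adjusted p = 0.978).

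No transcript of the cell type lists passed in any comparison. The genes with the smallest p were Csf1r for macrophages (-0.60 ± 0.437 with CoCM, edgeR adjusted p = 0.547), Sox9 for injured tubules (0.29 ± 0.199 with CoCM, adjusted p = 0.524), Slc5a12 for proximal tubules (-1.07 ± 0.363 with CoCM, adjusted p = 0.321), Tek for endothelium (-0.44 ± 0.139 with CoCM, adjusted p = 0.301) and Pdgfra for fibroblasts (-0.57 ± 0.346 with CoCM, adjusted p = 0.482).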
